A study of Mus musculus with 9 samples.

Results

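Described here are 50 genes of the interferon response and of antigen presentation on major histocompatibility complex (MHC) class I, in P19 embryonal carcinoma cells, in pluripotent stem cells cloned from them and in embryonic stem (ES) cells. The genes were chosen by symbol for their part in these pathways, with earlier results of these data known. Of the 50 genes, 45 had a probe set that the platform annotation gives a single gene symbol, among 19938 genes with such a probe set. Isg15, Gbp2, H2-K1 and H2-D1 were only on probe sets that carry several symbols, Ifi44 had no probe set under this symbol, and these 5 genes were not analysed here. Where a gene had several probe sets, the brightest was used.

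Interferons are secreted proteins that put cells into an antiviral state. Sensors of foreign nucleic acid in the cell switch on the type I interferon genes, the interferons bind the Ifnar1 and Ifnar2 receptor on the same or other cells, and Janus kinases then activate STAT factors, which with Irf9 bind the interferon-stimulated response element (ISRE) in the promoters of effector genes. Interferon gamma acts through another receptor and the gamma-activated site (GAS), and raises the proteins that load peptides on MHC class I. Mouse ES cells are known to make little interferon and to hold most inducible effector genes low, while members of the Ifitm family are on without interferon.

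RNA of 9 arrays was measured, 3 arrays for each of 3 mouse lines. P19 NTES7, named in the labels as pluripotent stem cells derived from P19 cells and in the design text as N7P8, is 1 ES-like line from a blastocyst cloned with a P19 nucleus. P19 is its nuclear donor, an embryonal carcinoma line, and R1 is an established ES line. All 3 lines grew in the same ES medium with serum and leukemia inhibitory factor, and the labels name no interferon treatment. The methods place P19 NTES cells and other pluripotent stem cells on mouse embryonic fibroblasts treated with mitomycin C, and name no such feeder cells for P19 cells. The design text states that feeder cells were cleared out, and the methods call the collected ES cells feeder free.

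Values are intensities on the linear scale, normalized by Robust Multichip Average, given as mean ± SD over 3 arrays. The array medians lay between 16.5 and 17.5, and a gene is said to be below the array median in a line where its mean log2 value was under that level. Such a value is near the floor of the array and a fold that uses it is not exact. Differences between lines are log2 differences ± SE, the first line named minus the other, from a limma fit of all 9 arrays. A gene was called where the Benjamini-Hochberg adjusted p over all 28853 probe sets was under 0.01 and the fold over 2. The labels call the arrays biological replicates. None of the sources read here says whether they were separate cultures, and p-values then measure only the spread between these arrays, which may be technical. In bulk RNA, fewer cells that express a gene and less RNA per cell cannot be told apart.

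The pluripotent cells were checked by 15 markers. P19 NTES7 against P19 cells gave 5 of them called higher and 1 lower, P19 against R1 cells 0 higher and 8 lower, and P19 NTES7 against R1 cells 0 higher and 8 lower. Of all genes, 2.83%, 7.31% and 4.51% were called in these comparisons. The 15 markers summed to 5608 to 6302 in the P19 NTES7 arrays, 6514 to 7022 in the P19 arrays and 8843 to 8986 in the R1 arrays. Between P19 NTES7 and P19 cells their median difference was -0.07, with 7 of 15 above 0. Pou5f1 was at 1471 ± 199 in P19 NTES7, 2196 ± 109 in P19 and 1470.0 ± 153 in R1 cells, and Esrrb, Klf4 and Tfcp2l1 were below the array median in P19 cells and in no other line. Markers of other cells also differed between the lines. Of 27 measured fibroblast markers, P19 NTES7 against P19 cells gave 16 calls higher and 0 lower, P19 against R1 cells 0 higher and 20 lower, and P19 NTES7 against R1 cells 0 higher and 5 lower. Their summed intensity was 3541 to 4202 in the P19 NTES7 arrays, 1839 to 1886 in the P19 arrays and 5037 to 5677 in the R1 arrays. Below the array median were 2 of the 27 fibroblast markers in P19 NTES7 cells, 16 in P19 cells and 1 in R1 cells. The 10 measured leukocyte markers summed to 161 to 196 in P19 NTES7, 96.8 to 104 in P19 and 252 to 308 in R1 arrays, and Ptprc, Cd3e, Itgam, Adgre1, Csf1r, Tyrobp and Fcer1g were below the array median in every line. The 6 endothelial markers summed to 78.7 to 81.9, 74.3 to 78.4 and 98.2 to 147 in the P19 NTES7, P19 and R1 arrays, and 1 of them was called, lower in P19 than in R1 cells. The 8 trophoblast and primitive endoderm markers summed to 391 to 429 in P19 NTES7, 135 to 139 in P19 and 247 to 266 in R1 arrays, with 4 called higher between P19 NTES7 and P19 cells, 1 lower between P19 and R1 cells and 0 between P19 NTES7 and R1 cells. Fibroblast and leukocyte marker sums were lowest in P19 and highest in R1, and trophoblast and endoderm marker sums were highest in P19 NTES7, orders that several members described below shared. Their part in those results was not tested.

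Promoters show where the factors of this pathway could bind, so a window of 300 bases (250 before to 50 after each start site, from RefSeq, build GRCm38.p6) was searched for the ISRE core GAAANNGAAA on both strands and for the GAS core TTCNNNGAA, which reads the same on both strands. Of 40 members with a window, 14 (35%) held an ISRE core, beside 1079 of all 27025 genes with a window (3.99%). A GAS core was in 10 of the 40 (25%), beside 2582 of all genes (9.55%). In the comparisons of lines given below, 11 measured members were called at least once, as were 9.37% of all genes. The ISRE core was in 3 of the 9 called members with a window (33.3%) and in 9 of the 26 others (34.6%), and the GAS core in 1 of the 9 (11.1%) and in 9 of the 26 (34.6%). Zbp1 and Parp14 are called members with no window here. Printed below are windows of 5 called members, 3 that hold an ISRE core and 2, Parp12 and Herc6, that hold none and were pointed out when the list was drawn up. Capitals mark the ISRE core. They run 5′ to 3′ along the gene from chr4:40239776-40240075 (Ddx58, minus strand), chr7:141010695-141010994 (Ifitm3, minus strand), chr2:122147437-122147736 (B2m, plus strand), chr6:39118300-39118599 (Parp12, minus strand) and chr6:57580742-57581041 (Herc6, plus strand).
Ddx58: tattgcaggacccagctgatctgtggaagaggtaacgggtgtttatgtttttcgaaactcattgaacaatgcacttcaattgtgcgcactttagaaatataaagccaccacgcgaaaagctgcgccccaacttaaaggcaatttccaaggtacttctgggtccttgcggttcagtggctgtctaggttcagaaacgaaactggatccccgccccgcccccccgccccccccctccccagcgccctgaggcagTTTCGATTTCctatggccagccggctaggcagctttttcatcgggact
Ifitm3: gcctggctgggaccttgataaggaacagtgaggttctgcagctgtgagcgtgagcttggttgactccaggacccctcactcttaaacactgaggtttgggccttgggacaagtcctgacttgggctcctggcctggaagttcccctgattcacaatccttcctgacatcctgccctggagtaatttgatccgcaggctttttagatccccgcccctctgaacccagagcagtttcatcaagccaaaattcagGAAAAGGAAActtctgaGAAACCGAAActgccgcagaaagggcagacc
B2m: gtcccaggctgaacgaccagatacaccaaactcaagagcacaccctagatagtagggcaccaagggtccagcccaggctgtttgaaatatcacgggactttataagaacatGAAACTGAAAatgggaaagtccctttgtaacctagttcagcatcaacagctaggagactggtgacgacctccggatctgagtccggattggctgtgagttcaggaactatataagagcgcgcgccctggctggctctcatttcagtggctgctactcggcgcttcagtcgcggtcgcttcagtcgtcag
Parp12: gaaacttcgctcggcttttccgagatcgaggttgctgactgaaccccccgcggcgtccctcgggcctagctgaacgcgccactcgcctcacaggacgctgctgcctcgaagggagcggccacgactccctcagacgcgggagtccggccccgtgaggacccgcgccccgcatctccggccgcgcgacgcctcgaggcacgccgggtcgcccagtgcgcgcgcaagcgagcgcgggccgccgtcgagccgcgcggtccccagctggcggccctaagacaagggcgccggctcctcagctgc
Herc6: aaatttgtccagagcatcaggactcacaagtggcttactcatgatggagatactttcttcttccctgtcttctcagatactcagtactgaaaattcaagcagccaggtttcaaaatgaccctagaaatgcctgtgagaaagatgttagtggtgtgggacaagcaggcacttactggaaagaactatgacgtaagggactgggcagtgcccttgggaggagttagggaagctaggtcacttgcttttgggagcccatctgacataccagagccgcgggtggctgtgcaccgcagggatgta
The core of Ddx58 began at base 3 after the start site and read on the opposite strand. Ifitm3 held 2 cores, which began at bases 3 and 20 after the start, and its 1 GAS match overlapped a core. The core of B2m lay upstream, 139 bases before the start. A match to these letters is not a measured binding site.

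Many members were near the array floor in all 3 lines, at a share no higher than that of all genes. Of the 45 members, 17 (37.8%) were below the array median in every line, beside 43.8% of all genes. By line, 20 members (44.4%) were below it in P19 NTES7, 28 (62.2%) in P19 and 21 (46.7%) in R1 cells, beside 49% of all genes in P19 NTES7, 48.7% in P19 and 48.7% in R1. Line means of Mx1, Mx2, Ifit1, Rsad2, Irf7, Cmpk2, Usp18, Sp100 and Samd9l lay between 7.09 and 11.9, and the Ifnb1 gene, which encodes interferon beta, was at 12.3 ± 0.635 in P19 NTES7, 12.3 ± 0.359 in P19 and 13.3 ± 1.56 in R1 cells. The line mean was highest in P19 NTES7 for 21 members, in P19 for 6 and in R1 for 18, where all genes divided 31.1%, 31.8% and 37% in the same order of lines.

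**Figure D1:**
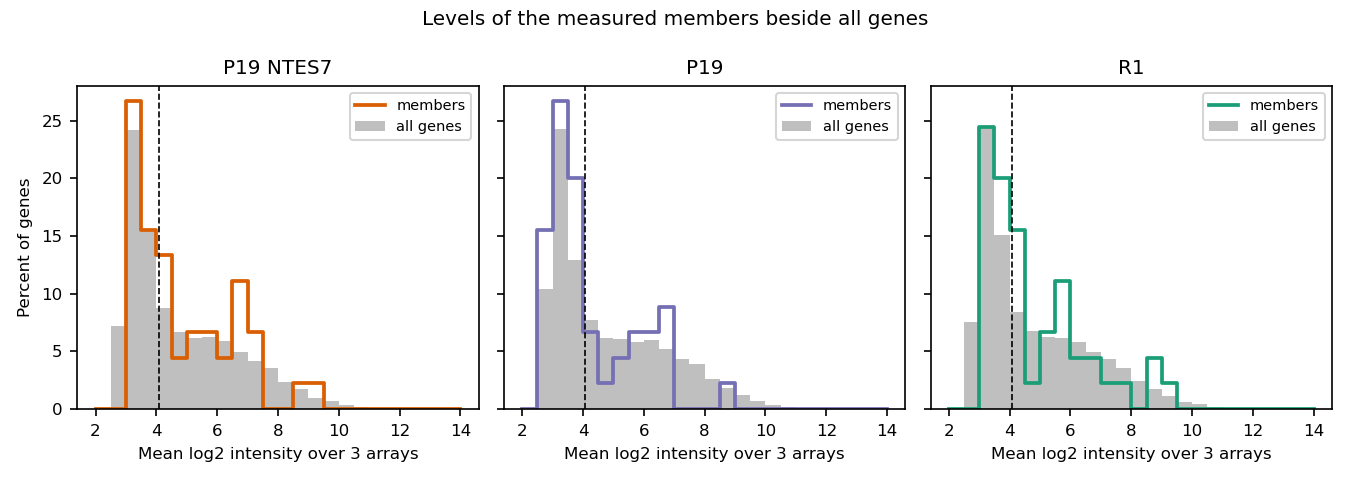
Distribution of the mean log2 intensity over 3 arrays (horizontal axis, bins of 0.5) of the 45 measured members (coloured line) and of all 19938 genes (grey bars), as a percent of genes, in P19 NTES7, P19 and R1 cells. The dashed line is the array median, and the members below it were 44.4% in P19 NTES7, 62.2% in P19 and 46.7% in R1 cells.

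More members were higher than lower in the cloned cells relative to their carcinoma donor. Between P19 NTES7 and P19 cells, 9 of 45 members (20%) were called, all 9 higher in P19 NTES7, where 2.83% of all genes were called (1.44% higher and 1.38% lower). The median member difference was 0.41, beside 0.02 over all genes, and 35 of 45 lay above 0. The members called higher were Ddx58, Zbp1, Oasl2, Ifitm1, Ifitm3, Parp12, Lgals3bp, B2m and Tapbp. P19 against R1 cells gave the reverse balance, with 1 member called higher (Herc6) and 7 lower in P19 (17.8% called, beside 7.31% of all genes, 3.46% higher and 3.85% lower), and a median of -0.34 beside -0.02. P19 NTES7 against R1 cells gave 5 members higher and 1 lower (13.3%, beside 4.51% of all genes, 1.68% higher and 2.84% lower), with a median of 0.08 beside 0.01. The comparisons share arrays, so these counts are not independent of each other. The list was drawn up with earlier results of these data known, so its shares are not those of a list chosen blind. The fold limit mattered: with the adjusted p alone, P19 NTES7 against P19 gave 16 members higher and 2 lower, P19 against R1 gave 4 and 14, and P19 NTES7 against R1 gave 7 and 7, where 12.1%, 25% and 18.7% of all genes passed in these 3 comparisons. Fibroblast markers had the same order between P19 and each other line, with the sums given above.

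**Figure D2:**
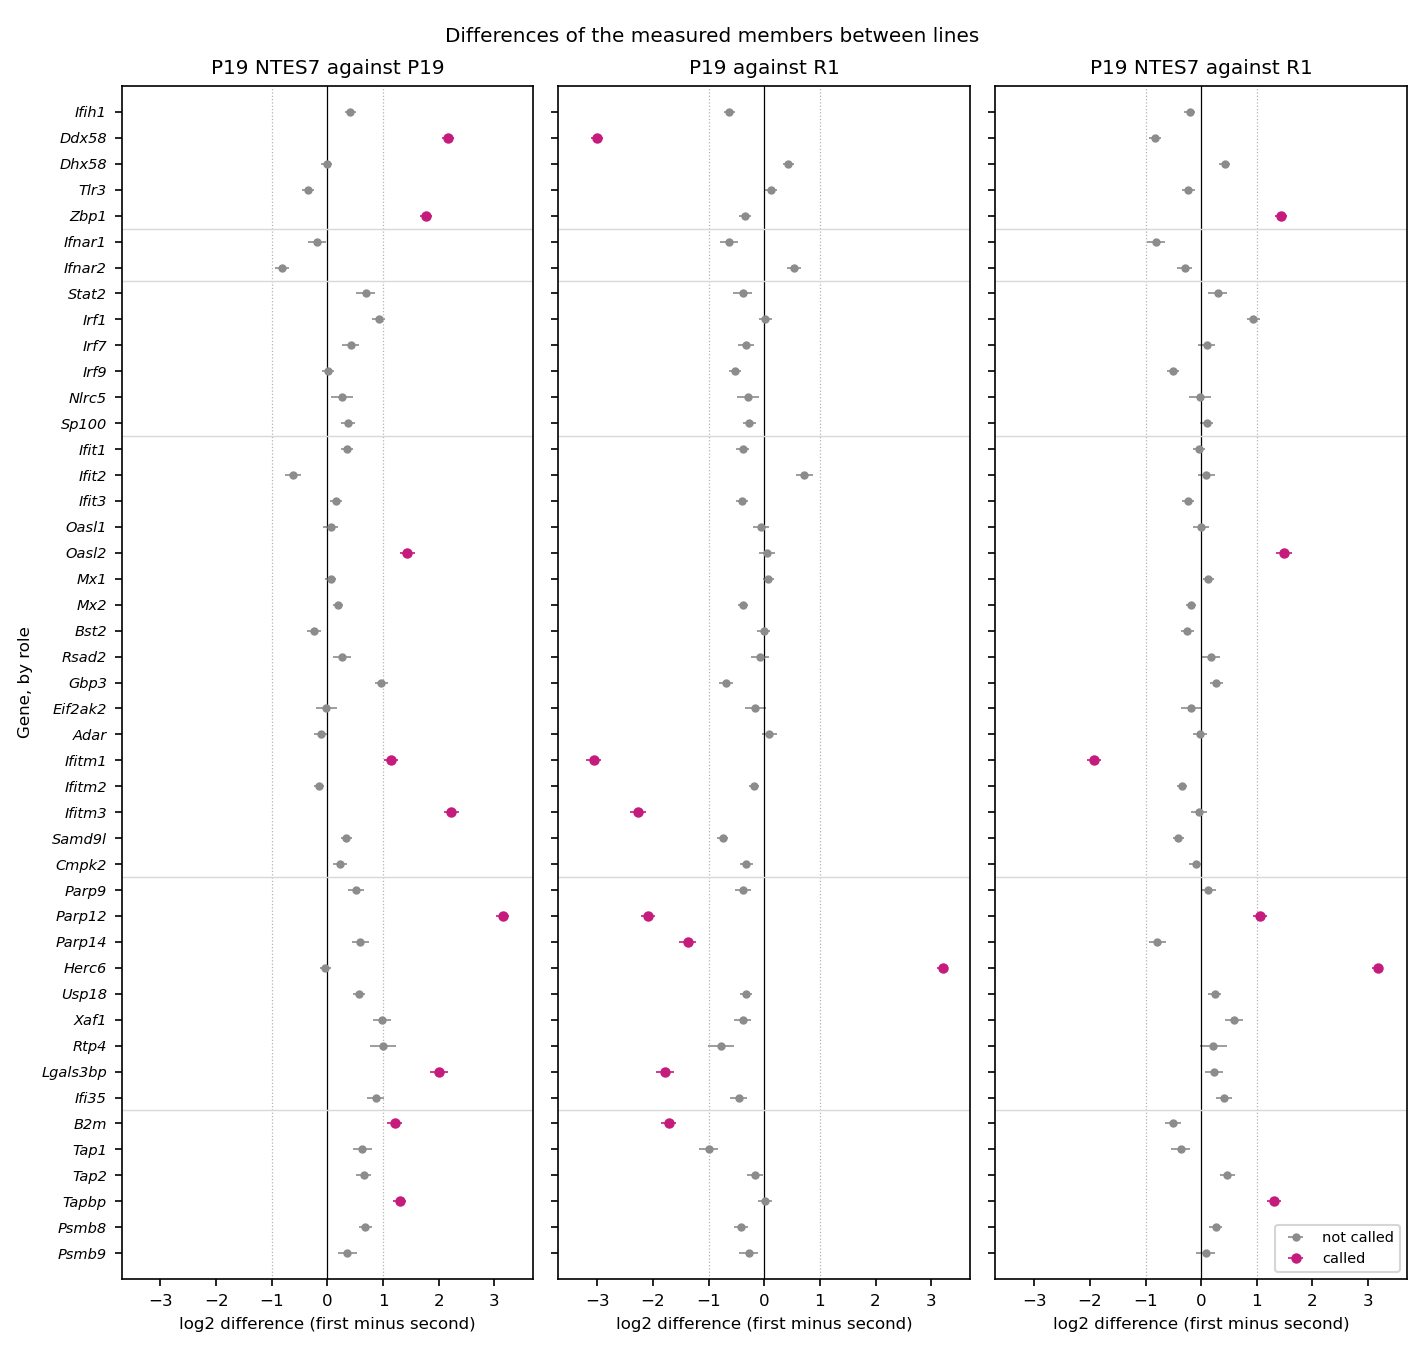
Log2 difference (horizontal axis, first line minus the other; bars are SE from limma) of each of the 45 measured members in the 3 comparisons, with genes ordered by role from sensors at the top to MHC class I at the bottom. Called members are coloured, dotted lines mark a 2-fold difference, and the left panel has 9 called members, all to the right of 0.

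Taken by role, the sensors came first. Ddx58, which encodes the RNA helicase RIG-I, had intensities of 72.6, 71.6 and 65.2 in P19 NTES7, 15.97, 14.1 and 16.4 in P19 and 114, 117 and 144 in R1 arrays. P19 arrays were all below those of both other lines, with no overlap. The difference was 2.17 ± 0.11 between P19 NTES7 and P19 (adjusted p = 2.7e-08) and -3.01 ± 0.11 between P19 and R1 cells (adjusted p = 3.03e-10), whereas that between P19 NTES7 and R1, -0.83 ± 0.11 (adjusted p = 8.68e-05), was under the fold limit. Zbp1, a sensor of Z-form nucleic acid that can start cell death, had 30.0, 33.9 and 28.5 in P19 NTES7, 9.51, 8.68 and 8.78 in P19 and 10.02, 11.5 and 12.9 in R1 arrays. Only the P19 NTES7 arrays stood above the array median for Zbp1. P19 NTES7 cells exceeded P19 (1.77 ± 0.11, adjusted p = 1.6e-07) and R1 cells (1.43 ± 0.11, adjusted p = 6.96e-07), both called. Ifih1 (the RNA sensor MDA5), Dhx58 (the related helicase LGP2) and Tlr3 (the endosomal RNA receptor) had line means of 8.07 to 15.3, below the array median everywhere, and were not called.

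The 2 receptor chains showed no called difference, where 9.37% of all genes were called in any comparison. Ifnar1 averaged 49.5 ± 10.9 in P19 NTES7, 55.4 ± 3.997 in P19 and 86.3 ± 14.8 in R1 cells. Ifnar2 averaged 37.6 ± 2.62, 66.6 ± 5.57 and 46.6 ± 8.72 in P19 NTES7, P19 and R1 cells. Its P19 NTES7 arrays were all below the P19 arrays (-0.82 ± 0.13, adjusted p = 0.000487, under the fold limit), the opposite direction to most members. The gene for a chain of the interferon gamma receptor, Ifngr1, was called in the same direction: 57.6, 62.0 and 50.5 in P19 NTES7, 124, 123 and 138 in P19 and 37.2, 32.8 and 36.2 in R1 arrays. It was lower in P19 NTES7 than in P19 (-1.18 ± 0.11, adjusted p = 4.31e-06) and higher in P19 than in R1 cells (1.86 ± 0.11, adjusted p = 1.51e-08). Of the 9 measured genes for interferons and gamma or lambda receptors that are not members, Ifngr1 was the 1 called between P19 NTES7 and P19 (11.1%, beside 2.83% of all genes). Ifngr1 and Ifnz, an interferon zeta gene, were called higher in P19 than in R1 cells (22.2%, beside 7.31% of all genes). The Ifnz call rested on P19 replicate 3, at 61.4 beside 25.5 and 29.6 in the other P19 arrays, and without that array its difference was 0.85 ± 0.12, under the fold limit.

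None of the 6 transcription factors among the members was called, where 9.37% of all genes were called in any comparison. With 6 genes, having no call is not unusual at that share. Irf1, the factor that drives MHC class I and many interferon gamma targets, came nearest: 114, 99.2 and 113 in P19 NTES7, 62.8, 59.4 and 50.4 in P19 and 53.3, 55.4 and 61.1 in R1 arrays. The P19 NTES7 arrays were above all others, and the differences of 0.92 ± 0.11 from P19 (adjusted p = 5.23e-05) and 0.94 ± 0.11 from R1 (adjusted p = 2.6e-05) were under the fold limit. Another, dim probe set of Irf1 averaged 13.3, 10.4 and 11.0 in P19 NTES7, P19 and R1 cells and was not called. Stat2, which joins Irf9 in the ISRE-binding complex, averaged 70.0 ± 8.11 in P19 NTES7, 43.7 ± 7.38 in P19 and 57.9 ± 15.4 in R1 cells. Irf9 itself averaged 15.7 ± 0.591, 15.5 ± 1.01 and 22.4 ± 3.30 in P19 NTES7, P19 and R1 cells. Nlrc5, the activator of MHC class I genes, averaged 128 ± 19.03, 110 ± 43.0 and 129 ± 8.69 in the same lines on the brightest of its 19 probe sets. Its other probe sets were far dimmer, with line means of 6.11 to 22.1, and none of them was called. Irf7 and Sp100 were below the array median in every line.

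Other genes carry the signal from receptors and sensors (kinases, adaptors and further STAT, IRF and NF-kappa-B factors). P19 NTES7 against P19 cells gave 2 of 20 measured genes of this kind called higher and 0 lower (10%, beside 2.83% of all genes). Jak2, a kinase of the interferon gamma and other cytokine receptors, averaged 47.0 ± 6.44 in P19 NTES7, 18.7 ± 4.55 in P19 and 28.2 ± 5.76 in R1 cells (1.35 ± 0.17 between P19 NTES7 and P19, adjusted p = 0.000101). The NF-kappa-B subunit gene Rel averaged 58.1 ± 5.90 in P19 NTES7, 22.8 ± 2.32 in P19 and 39.6 ± 3.29 in R1 cells (1.35 ± 0.11 between P19 NTES7 and P19, adjusted p = 2.25e-06). Trim25, a ubiquitin ligase that activates RIG-I, was the 1 gene of this list called between P19 and R1 cells (5%, beside 7.31% of all genes). It averaged 69.6 ± 15.9 in P19 cells beside 160.2 ± 3.67 in R1 cells (-1.23 ± 0.18, adjusted p = 0.000104). None of the 20 was called between P19 NTES7 and R1 cells, where the adjusted p alone was passed by 4 higher and 0 lower, beside 18.7% of all genes.

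Of 17 measured antiviral effectors, 3 were called between P19 NTES7 and P19 cells (17.6%, beside 2.83% of all genes), all higher in P19 NTES7. The Ifitm genes, which are neighbours on chromosome 7 and encode membrane proteins that block virus entry, differed from each other. Ifitm3 had 564, 521 and 565 in P19 NTES7, 118, 129 and 107 in P19 and 503, 503 and 717 in R1 arrays. P19 NTES7 and R1 arrays overlapped, and both lay far above the P19 arrays (2.23 ± 0.14, adjusted p = 1.21e-07 for P19 NTES7 against P19; -2.27 ± 0.14, adjusted p = 2.34e-08 for P19 against R1). The difference between P19 NTES7 and R1 cells was -0.04 ± 0.14. Ifitm1 had 119, 85.2 and 89.1 in P19 NTES7, 46.9, 43.6 and 41.2 in P19 and 343, 366 and 399 in R1 arrays. Here P19 NTES7 lay between the other lines with no overlap on either side, called higher than P19 (1.14 ± 0.13, adjusted p = 2.86e-05) and lower than R1 (-1.93 ± 0.13, adjusted p = 1.16e-07), while P19 was lower than R1 (-3.07 ± 0.13, adjusted p = 7.07e-10). Another Ifitm1 probe set gave the same order of lines (86.0, 44.4 and 172), with its difference of 0.93 ± 0.14 between P19 NTES7 and P19 under the fold limit. Without P19 NTES7 replicate 1 the difference between P19 NTES7 and P19 fell just under the limit on the main probe set too, at 0.99. Ifitm2 averaged 378 ± 2.27 in P19 NTES7, 421 ± 10.5 in P19 and 478 ± 14.2 in R1 cells, and none of its 3 probe sets was called. The genes are near-identical in part, so the probe sets may share signal.

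Oasl2, an oligoadenylate synthetase-like protein, had 54.9, 61.0 and 55.4 in P19 NTES7, 19.8, 20.9 and 22.5 in P19 and 17.2, 18.2 and 26.5 in R1 arrays. The P19 NTES7 arrays were above those of both other lines, which overlapped. The differences were 1.44 ± 0.14 from P19 (adjusted p = 1.12e-05) and 1.49 ± 0.14 from R1 cells (adjusted p = 4.37e-06). Its relative Oasl1 was at 16.7 ± 3.04, 15.8 ± 1.34 and 16.5 ± 1.499 in P19 NTES7, P19 and R1 cells. Gbp3, a guanylate-binding protein, averaged 14.9 ± 2.12 in P19 NTES7, 7.55 ± 0.55 in P19 and 12.2 ± 1.03 in R1 cells, below the array median in each, and its difference of 0.97 ± 0.12 between P19 NTES7 and P19 was just under the fold limit. Adar, the RNA-editing enzyme, at 104 ± 14, 112 ± 7.39 and 106 ± 15.4, and Eif2ak2, the kinase PKR, at 47.2 ± 3.86, 48.0 ± 3.84 and 55.8 ± 20.8 in P19 NTES7, P19 and R1 cells, were above the array median in every line and not called, and their arrays overlapped in every comparison. Ifit2, whose product binds viral RNA, averaged 10.5 ± 1.98 in P19 NTES7, 16.2 ± 2.78 in P19 and 9.73 ± 0.421 in R1 cells, all below the array median.

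Parp12 and Herc6 were pointed out when the list was drawn up. Their fitted differences were close to those of Ifitm1 and Ddx58, and each rested on a line below the array median. Parp12, an ADP-ribosyltransferase that restricts several viruses, had 125, 136 and 133 in P19 NTES7, 16.4, 14.5 and 13.5 in P19 and 57.6, 58.2 and 74.2 in R1 arrays. The 3 lines did not overlap, with P19 below the array median. The differences were 3.15 ± 0.12 between P19 NTES7 and P19 (adjusted p = 1.14e-09), -2.09 ± 0.12 between P19 and R1 (adjusted p = 1.39e-08) and 1.06 ± 0.12 between P19 NTES7 and R1 (adjusted p = 1.7e-05). The last of these was 1.0 without R1 replicate 1, at which the call was lost. Herc6, which in the mouse attaches ISG15 to other proteins, had 117, 125 and 107 in P19 NTES7, 128, 108 and 123 in P19 and 12.2, 13.2 and 13.3 in R1 arrays. Herc6 was the 1 called member whose arrays overlapped between P19 NTES7 and its donor (-0.04 ± 0.10), and it was below the array median in R1. It was higher in P19 than in R1 (3.21 ± 0.10, adjusted p = 8e-11) and higher in P19 NTES7 than in R1 cells (3.17 ± 0.10, adjusted p = 1.77e-10). Of the 11 members called in any comparison, Herc6 was the 1 that was called higher in P19 than in R1 cells, and Parp14 the 1 other that was not called between P19 NTES7 and P19.

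**Figure D3:**
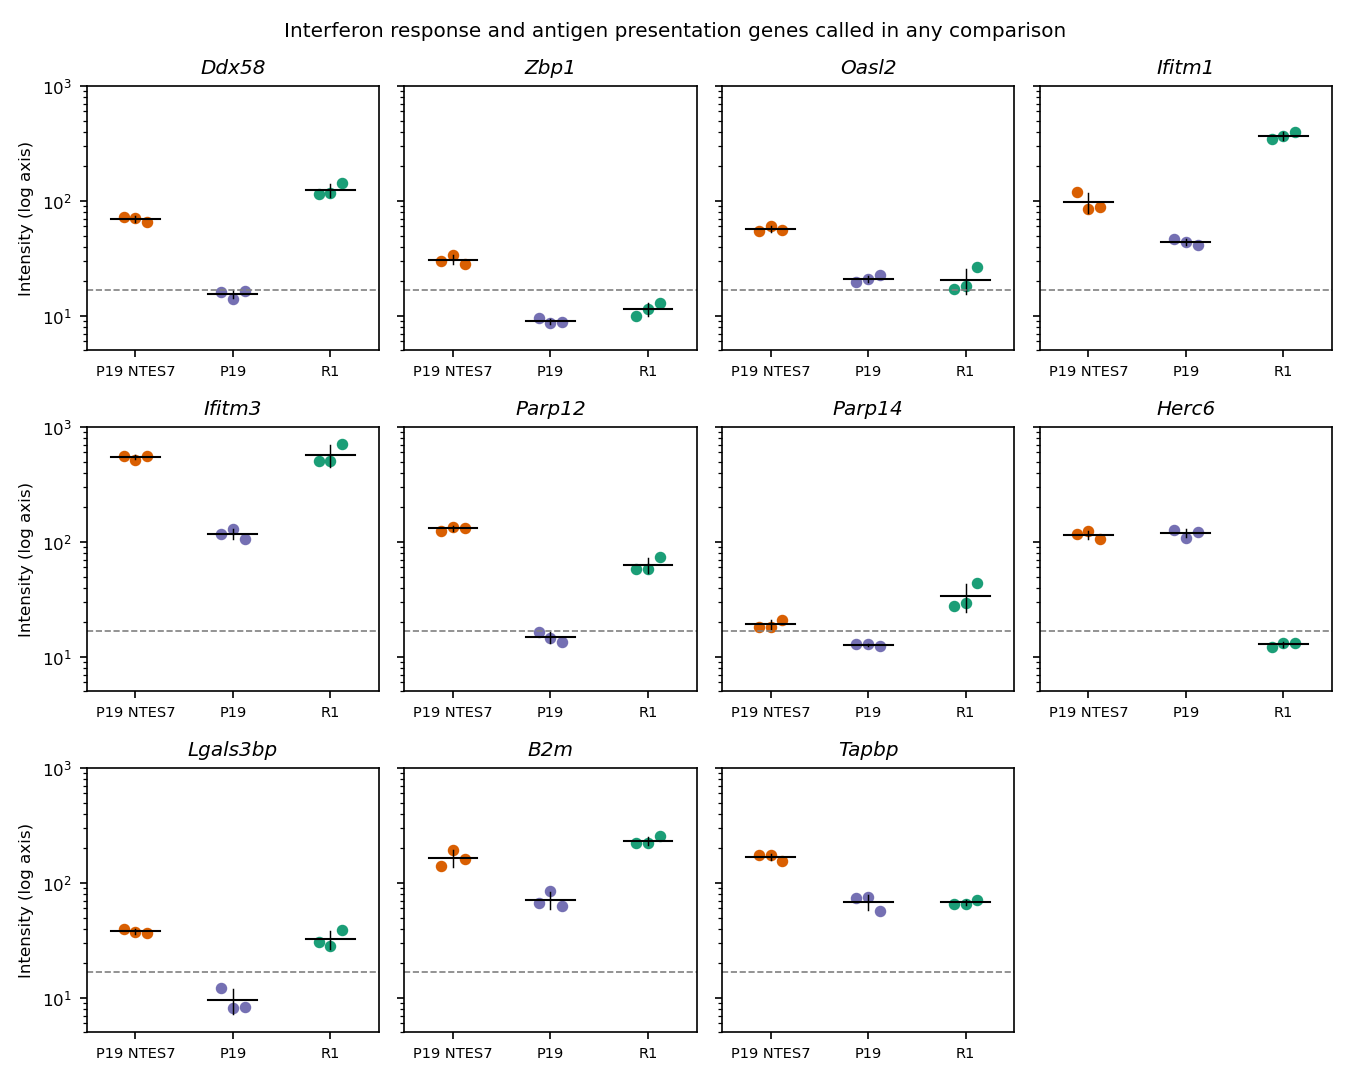
Intensity (vertical log axis) in each array (points) of the 11 members called in any comparison, in P19 NTES7, P19 and R1 cells from left to right. Horizontal bars are line means, vertical bars are SD over 3 arrays, and the dashed line is the mean array median (16.9). Ddx58, Ifitm3, Lgals3bp, B2m, Parp12, Ifitm1 and Parp14 dip in P19, Zbp1, Oasl2 and Tapbp stand out in P19 NTES7, and Herc6 is low in R1.

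Parp14, another ADP-ribosyltransferase, had 18.2, 18.1 and 21.1 in P19 NTES7, 12.9, 12.8 and 12.4 in P19 and 27.8, 29.3 and 44.2 in R1 arrays. P19 NTES7 lay between the others without overlap, and only P19 against R1 cells was called (-1.38 ± 0.15, adjusted p = 7.83e-06). Lgals3bp, a secreted galectin-3-binding glycoprotein, had 39.7, 37.1 and 36.7 in P19 NTES7, 12.2, 8.21 and 8.29 in P19 and 30.6, 28.0 and 38.8 in R1 arrays. Its P19 NTES7 and R1 arrays overlapped, and P19 was lower than both (2.01 ± 0.16, adjusted p = 1.11e-06 for P19 NTES7 against P19; -1.78 ± 0.16, adjusted p = 9.95e-07 for P19 against R1). Parp9 averaged 36.2 ± 3.63 in P19 NTES7, 25.2 ± 1.62 in P19 and 33.4 ± 7.80 in R1 cells and was not called. Xaf1, Rtp4, Ifi35 and Usp18, further induced genes, had P19 NTES7 means of 11.3 to 21.1 against P19 means of 7.57 to 10.5, and none was called. For Xaf1 (0.98 ± 0.16), Ifi35 (0.87 ± 0.15) and Usp18 (0.57 ± 0.11) the adjusted p passed and the fold did not. For Rtp4 (1.0 ± 0.24, adjusted p = 0.0102) the adjusted p did not pass. Rtp4 stood at 14.5, 13.4 and 29.5 in the R1 arrays, and the same difference of 1.0 was called without R1 replicate 1 (adjusted p = 0.00809), R1 replicate 2 (adjusted p = 0.00552) or R1 replicate 3 (adjusted p = 0.000202).

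In antigen presentation, B2m and Tapbp were called, each with its own order of lines. B2m, the light chain of every MHC class I molecule, had 142, 194 and 160.1 in P19 NTES7, 66.3, 85.4 and 62.5 in P19 and 224, 221 and 255 in R1 arrays. P19 was lowest and R1 highest, with no overlap, and the differences were 1.21 ± 0.14 between P19 NTES7 and P19 (adjusted p = 3.88e-05), -1.72 ± 0.14 between P19 and R1 (adjusted p = 4.71e-07) and -0.51 ± 0.14 between P19 NTES7 and R1 (adjusted p = 0.0161). Tapbp encodes tapasin, which bridges class I molecules to the peptide transporter, and had 175, 173 and 155 in P19 NTES7, 73.2, 75.4 and 57.0 in P19 and 65.6, 65.9 and 71.5 in R1 arrays. P19 and R1 arrays overlapped (0.01 ± 0.12), and P19 NTES7 was higher than P19 (1.30 ± 0.12, adjusted p = 4.24e-06) and than R1 cells (1.31 ± 0.12, adjusted p = 2.19e-06). The transporter genes Tap1 and Tap2 and the immunoproteasome genes Psmb8 and Psmb9 were dim, with line means of 9.23 to 26.1. None was called. Tap1 averaged 15.5 ± 1.89 in P19 NTES7, 10.04 ± 1.44 in P19 and 20.4 ± 5.66 in R1 cells, and its difference of -1.0 ± 0.17 between P19 and R1 stood at the fold limit. The third inducible proteasome subunit, Psmb10, is not a member and was called, at 49.8 ± 4.76 in P19 NTES7 cells against 18.7 ± 1.97 in P19 cells (1.42 ± 0.11, adjusted p = 9.91e-07).

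Psmb10 was 1 of 25 measured antigen presentation genes outside the list. P19 NTES7 against P19 cells gave 2 of them called higher and 0 lower (8%, beside 2.83% of all genes). P19 against R1 cells gave 0, beside 7.31% of all genes. By the adjusted p of limma alone it gave 3 higher and 2 lower, where 25% of all genes passed. P19 NTES7 against R1 cells gave 2 higher and 0 lower (8%, beside 4.51% of all genes). The other gene called between P19 NTES7 and P19 was Erap1, the aminopeptidase that trims class I peptides, at 60.7 ± 2.46 in P19 NTES7, 26.5 ± 2.15 in P19 and 31.1 ± 7.11 in R1 cells. Psme2, a subunit of the proteasome activator PA28, was at 138 ± 10.4, 92.4 ± 5.69 and 64.3 ± 15.0 in P19 NTES7, P19 and R1 cells and was called between P19 NTES7 and R1 (1.13 ± 0.14, adjusted p = 4.14e-05). The class I gene H2-Q4 was also called there (1.10 ± 0.25), on a family of near-identical genes and on arrays that spread from 48.4 to 98.2 in P19 NTES7, and the call was lost without P19 NTES7 replicate 1, P19 NTES7 replicate 2, R1 replicate 1 or R1 replicate 2 (0.81 to 1.15).

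Among 41 other interferon-induced effectors, 6 were higher and 0 lower between P19 NTES7 and P19 cells (14.6% called, beside 2.83% of all genes). Between P19 and R1 cells 1 was higher and 4 lower (12.2%, beside 7.31%). Between P19 NTES7 and R1 cells 2 were higher and 2 lower (9.76%, beside 4.51%). Irgm1, an immunity-related GTPase, had 141, 154 and 106 in P19 NTES7, 43.7, 33.7 and 22.03 in P19 and 33.4, 35.9 and 110.3 in R1 arrays. It was called between P19 NTES7 and P19 cells (2.05 ± 0.37, adjusted p = 0.00144), a call that was lost without P19 NTES7 replicate 2 (1.94 ± 0.43, adjusted p = 0.0108), and R1 replicate 3 stood alone among the R1 arrays. Between P19 NTES7 and R1 cells it was not called over all arrays (1.37 ± 0.37, adjusted p = 0.0139) and was called without R1 replicate 3 (1.93 ± 0.23, adjusted p = 5.55e-05). Ddx60, a helicase that aids RIG-I, had 27.5, 26.6 and 23.2 in P19 NTES7, 7.70, 7.76 and 6.85 in P19 and 9.34, 9.61 and 19.7 in R1 arrays, again with R1 replicate 3 apart, and was higher in P19 NTES7 than in P19 (1.79 ± 0.22, adjusted p = 6.12e-05). Phf11d, at 14.7 ± 0.572 in P19 NTES7, 10.6 ± 0.310 in P19 and 44.5 ± 8.12 in R1 cells, was lower in both other lines than in R1 (-2.05 ± 0.12, adjusted p = 1.76e-08 for P19; -1.58 ± 0.12, adjusted p = 4.36e-07 for P19 NTES7). Zc3hav1, the antiviral zinc-finger protein ZAP, averaged 63.1 ± 2.94 in P19 NTES7, 21.9 ± 4.27 in P19 and 37.7 ± 1.59 in R1 cells (1.54 ± 0.13 between P19 NTES7 and P19, adjusted p = 2.49e-06). Ddx60 and Nmi were the 2 called higher in P19 NTES7 than in R1 cells, but Ddx60 lost the call without P19 NTES7 replicate 1, P19 NTES7 replicate 2, R1 replicate 1 or R1 replicate 2 (0.90 to 1.06) and Nmi without P19 NTES7 replicate 2 (0.99). Between P19 NTES7 and P19 cells, Parp10 lost its call without P19 NTES7 replicate 3 (0.96). Between P19 and R1 cells, Slfn9 lost its call without P19 replicate 1 (-0.98) or R1 replicate 1 (-0.99). In that comparison Ifi203 was newly called without P19 replicate 1 (-1.03), and Oas1a without R1 replicate 2 (-1.12).

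The third R1 array, R1 replicate 3, stood apart across the members. R1 replicate 3 was the highest R1 array for 30 of 45 members (66.7%), beside 40.4% of all genes, and for 29 of the 41 other effectors (70.7%). It was over 1.2 times the higher of the other R1 arrays for 18 members (40%), beside 12.6% of all genes. R1 replicates 1 and 2 were so for 0 members, beside 1.11% and 0.647% of all genes. P19 NTES7 replicate 2 was the highest array of its line for 20 members (44.4%), beside 28.7% of all genes. It was over 1.2 times the higher of the other P19 NTES7 arrays for 5 members (11.1%), beside 2.86% of all genes. The median member deviated from its line mean by 0.13 on the log2 scale in R1 replicate 3, by -0.10 in R1 replicate 1 and by -0.07 in R1 replicate 2, while the medians of all genes were between -0.02 and 0.00. Fibroblast markers moved the same way in this array, which was the highest of R1 for 18 of 27 (66.7%), with a median deviation of 0.10 and a sum of 5677 against 5063 and 5037. Its leukocyte markers summed to 308 against 257 and 252, and its endothelial markers to 147 against 98.2 and 104. In P19 NTES7 replicate 1 the median deviation was 0.14 for fibroblast markers and -0.01 for members. In P19 NTES7 replicate 2 it was -0.04 for fibroblast markers and 0.05 for members. The part of these markers in the member values was not tested. Without R1 replicate 3 the 9, 8 and 6 calls of the members in P19 NTES7 against P19, P19 against R1 and P19 NTES7 against R1 became 10, 8 and 6, with no member call lost.

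**Figure D4:**
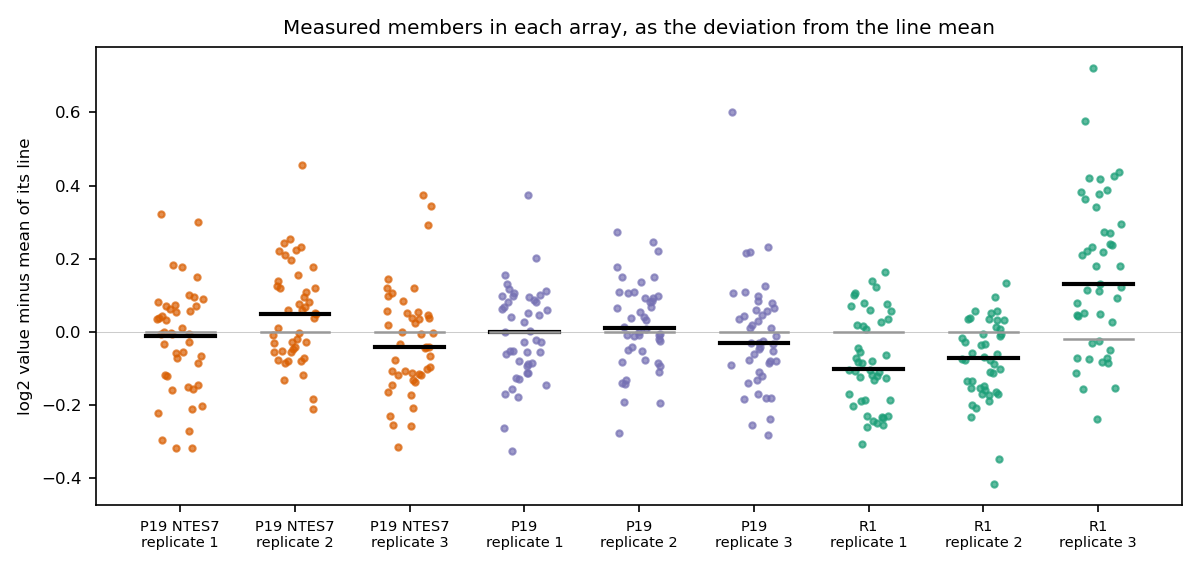
Log2 value minus the mean of its line (vertical axis) for each of the 45 measured members (points) in each of the 9 arrays, with the member median (black bar) and the median of all genes (grey bar). The member median is 0.13 in R1 replicate 3 and between -0.10 and 0.05 in the other 8 arrays.

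Grouped by how the lines ordered, the 11 called members fell into several patterns. Ddx58, Ifitm3, Lgals3bp and B2m were called lower in P19 than in both other lines and not called between these. Zbp1, Oasl2 and Tapbp were called in P19 NTES7 above both other lines and not called between P19 and R1. Parp12 and Ifitm1 were called in all 3 comparisons, with P19 lowest for both, and P19 NTES7 highest for Parp12 and R1 highest for Ifitm1. Herc6 was low in R1 alone, Parp14 was called between P19 and R1 alone, and 34 members were called nowhere. In any comparison, 9.37% of all genes were called.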

How the data were processed

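RNA of the P19 NTES7, P19 and R1 lines was measured on GeneChip Mouse Gene 1.0 ST arrays, 3 a line, from 100 ng of total RNA. The deposited values are intensities on the linear scale that the authors made with Robust Multichip Average (RMA, no version given). The methods also describe a scaled median, which the values do not show. The platform annotation gave 21789 probe sets 1 symbol, 1621 several and 5443 none. Log2 values were fitted with limma 3.58.1 (R 4.3.3), with 1 mean per line and moderated variances over all 28853 probe sets, and every adjusted p is limma's with Benjamini-Hochberg adjustment. Shares of all genes are over the 19938 genes by the same rule. The fit was tested on simulated data with independent noise, which does not cover shifts that many genes share in an array. The number of arrays limits the precision, and the median SD of a log2 value was 0.132 in P19 NTES7, 0.106 in P19 and 0.121 in R1 cells.

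The members, the other lists and the markers were chosen with earlier results of these data known. Arrays were given for members called in any comparison, up to 4 brightest members were named per role, and up to 4 called genes of each other pathway list. Genes named beyond that were chosen after their values were seen. Alternatives were other normalizations, a pseudocount, filters, probe set rules, a plain linear model with adjusted or unadjusted p, a replicate block and leaving out each array. A promoter counted as holding a motif where any window of the gene held it.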

Additional observations from a re-analysis of the deposited data

How the results depend on the processing

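Of 23 member calls over the 3 comparisons, 16 were made under every alternative, and no called difference changed sign. Adding 16 before log2, which shrinks the differences of dim genes, gave member medians of 0.21 (P19 NTES7 against P19) and -0.15 (P19 against R1) and 3 members called higher in P19 NTES7 than in R1 cells. With it, 7 calls fell under the fold limit: Zbp1 (0.90), Oasl2 (0.98) and Ifitm1 (0.91) in P19 NTES7 against P19, Parp14 (-0.78) and Lgals3bp (-0.92) in P19 against R1, and Zbp1 (0.77) and Parp12 (0.90) in P19 NTES7 against R1. Without probe sets below the array median in every line, the medians were 0.64 (P19 NTES7 against P19), -0.39 (P19 against R1) and -0.02 (P19 NTES7 against R1), over fewer genes, and with array weights that of P19 against R1 was -0.28. With the adjusted p alone, 18 members were called between P19 NTES7 and P19 (16 higher and 2 lower), 18 between P19 and R1 (4 higher and 14 lower) and 14 between P19 NTES7 and R1 (7 lower), while 12.1%, 25% and 18.7% of all genes passed. Leaving out each array in turn, the medians ran from 0.41 to 0.47, from -0.43 (without R1 replicate 1) to -0.27 (without R1 replicate 3) and from -0.01 (without P19 NTES7 replicate 2) to 0.11 in the 3 comparisons in the same order, and the calls from 9 to 11, 8 to 9 and 5 to 7. The median of P19 NTES7 against R1 cells thus changed sign between settings. The causes of these shifts were not tested.

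The replicate numbers did not pair the arrays: deviations of arrays with the same number correlated from -0.223 to 0.04. Arrays of different number correlated from -0.150 to 0.207, highest for P19 NTES7 replicate 1 with R1 replicate 3. With a replicate block, 9, 8 and 6 members were called, as without it, and 562, 1458 and 897 of all genes. The signal over background limits what the arrays show of members below the array median.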
